A study of Mus musculus with 6 samples.

Results

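The urea cycle turns ammonia and the nitrogen of aspartate into urea, and in the liver it runs mainly in periportal hepatocytes, the cells nearest to the incoming portal blood. Its core enzymes and the neighbouring enzymes that release ammonia from amino acids were followed as 10 listed genes. These were Nags, Cps1, Otc, Slc25a15, Ass1, Asl and Arg1 of the urea cycle and Hal, Sds and Gls2 of periportal amino acid breakdown. The genes were listed by name from known pathway membership, with earlier results of these data known, and all 10 were found among the 58601 rows of the table. Each of the 10 was among the 13854 rows whose mean reached 1 TPM (transcripts per 1000000 transcripts), which were the rows tested.

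RNA was sequenced from whole liver of mice labelled Mdr2 knockout, written Mdr2-/- in the titles and Mdr2-HKO in the protocol, a term that the labels do not spell out. Mdr2, also called Abcb4, exports phosphatidylcholine into bile, and its loss injures the bile ducts and causes cholestasis. Mice aged 8 weeks received either vehicle or lycorine, a plant alkaloid, over 2 weeks, and each group has 3 libraries. Both groups carry the knockout, so no comparison here speaks to the effect of the genotype, and wild-type liver is not analysed here. Dose, route and sex are not given in the labels, nor is it stated that each library is a separate animal, so p-values measure only the spread between libraries, which may be technical. The stated question of the study was the effect of lycorine on intrahepatic cholestasis.

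In the cycle, NAGS makes the activator without which CPS1 cannot capture ammonia inside the mitochondrion. OTC joins the product to ornithine, which the carrier SLC25A15 brings in, and the citrulline formed leaves for the cytosol. There ASS1 adds aspartate, ASL releases fumarate to yield arginine, and ARG1 splits arginine into urea and ornithine. HAL removes ammonia from histidine, SDS removes it from serine, and GLS2 removes it from glutamine in periportal hepatocytes. Glutamine synthetase, Glul, captures ammonia that escapes the cycle in the cells around the central vein, at the opposite end of the lobule.

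Promoter sequence is shown for 3 of the genes, Nags and Hal because their fold changes were among the largest of the 10, and Otc because its fold change lay on the other side of 0. RefSeq promoter windows on GRCm38.p6 were matched to 5 of the 10 genes. Each line gives, 5′ to 3′ on the gene's strand, the 250 bases before the start, and capitals mark matches to the motifs searched. The windows are chr11:102145263-102145512 on the plus strand for Nags, chr10:93488518-93488767 on the plus strand for Hal and chrX:10252055-10252304 on the plus strand for Otc.
Nags: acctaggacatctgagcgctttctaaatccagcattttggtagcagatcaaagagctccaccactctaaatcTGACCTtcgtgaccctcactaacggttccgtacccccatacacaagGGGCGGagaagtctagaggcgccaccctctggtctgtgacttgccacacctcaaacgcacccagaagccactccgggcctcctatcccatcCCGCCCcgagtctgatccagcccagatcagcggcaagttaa
Hal: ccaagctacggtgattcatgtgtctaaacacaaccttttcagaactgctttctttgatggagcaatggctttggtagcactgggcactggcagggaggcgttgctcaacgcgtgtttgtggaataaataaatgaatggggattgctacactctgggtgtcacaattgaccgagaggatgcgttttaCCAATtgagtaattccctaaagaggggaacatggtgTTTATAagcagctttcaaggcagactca
Otc: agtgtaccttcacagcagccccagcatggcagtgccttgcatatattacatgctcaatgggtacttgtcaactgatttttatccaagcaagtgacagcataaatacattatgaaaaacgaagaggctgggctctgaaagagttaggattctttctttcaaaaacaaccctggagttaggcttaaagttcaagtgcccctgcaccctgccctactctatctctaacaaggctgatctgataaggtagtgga
Both strands were searched, and the motifs were allowed to overlap. The Nags window holds GGGCGG (GC box) at positions -132 to -127 and, on the reverse strand, -41 to -36, and it holds AGGTCA (a nuclear receptor half-site) on the reverse strand at -178 to -173, counted from the start. The Hal window holds CCAAT at -64 to -60 and TATAAA on the reverse strand at -28 to -23. The Otc window holds no match to any motif searched. Among the promoters of 27025 genes, GGGCGG was present in 32.9%, AGGTCA in 13.8%, CCAAT in 34.5% and TATAAA in 13%. TGACG (cyclic AMP response half-site, 17.9% of promoters, contained in TGACGTCA at 1.62%), TTGCNNCAA (1.78%), TTGCGCAA (0.17%), CAAAGTCCA (0.381%) and the HNF1 motif (0.0074%) were not found in the windows of these 3 genes. A match describes letters only. G and C made up 55.6% of the Nags window, 45.6% of the Hal window and 43.6% of the Otc window.

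The libraries were unequal before any comparison, and vehicle 3 stood apart. Its albumin (Alb) was at 5039 TPM against 11824 to 19785 TPM in the other 5, and protein-coding nuclear genes made up 51.5% of its TPM against 63.7% to 78.1%. Among protein-coding genes its short transcripts were low: the median deviation from the mean of all libraries, in log2(TPM + 1), was -0.49 for transcripts of 114 to 1865 bases and 0.07 for those of 5081 to 40378 bases. Lycorine 3 had the next lowest albumin. Abcb4 itself was present at 8.32 to 43.5 TPM, with overlapping groups, and a gene-level value does not show which part of a transcript remains. TPM keeps no depth, so sequencing depth is unknown. The hepatocyte markers, 8 of 8 detected, summed to between 30569 and 79684 TPM in vehicle and between 66784 and 102695 TPM in lycorine, and none of them was at 0 in any library. The lowest sum was that of vehicle 3, while vehicle 1 and vehicle 2, at 79684 and 72849 TPM, lay within the lycorine range. In whole tissue, fewer periportal hepatocytes and less RNA per hepatocyte cannot be told apart.

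Expression of the 10 genes spanned a wide range of levels in TPM, a scale that accounts for transcript length. Ass1 led at a mean of 1015 ± 356 TPM over all 6 libraries, followed by Asl at 565 ± 159 and Arg1 at 351 ± 165 TPM (SD, n = 6). Sds came next at 132 ± 31.4 TPM (SD, n = 6). Gls2, Slc25a15 and Cps1 had similar means of 77.2 ± 15.5, 76.6 ± 17.6 and 76.5 ± 24.6 TPM, and Hal and Otc were at 57.6 ± 19.7 and 53.9 ± 17.3 TPM (SD, n = 6). Nags was lowest in every library, at 27.0 ± 9.57 TPM (SD, n = 6). The cytosolic trio Ass1, Asl and Arg1 thus stood above the mitochondrial steps. Neighbours were not always separated: Ass1 exceeded Asl in 5 of 6 libraries, Asl exceeded Arg1 in 5, Arg1 exceeded Sds in 5, and Gls2 exceeded Slc25a15 in 3. Together the 10 genes took 0.205% to 0.242% of TPM in 5 libraries and 0.353% in lycorine 1.

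**Figure D1:**
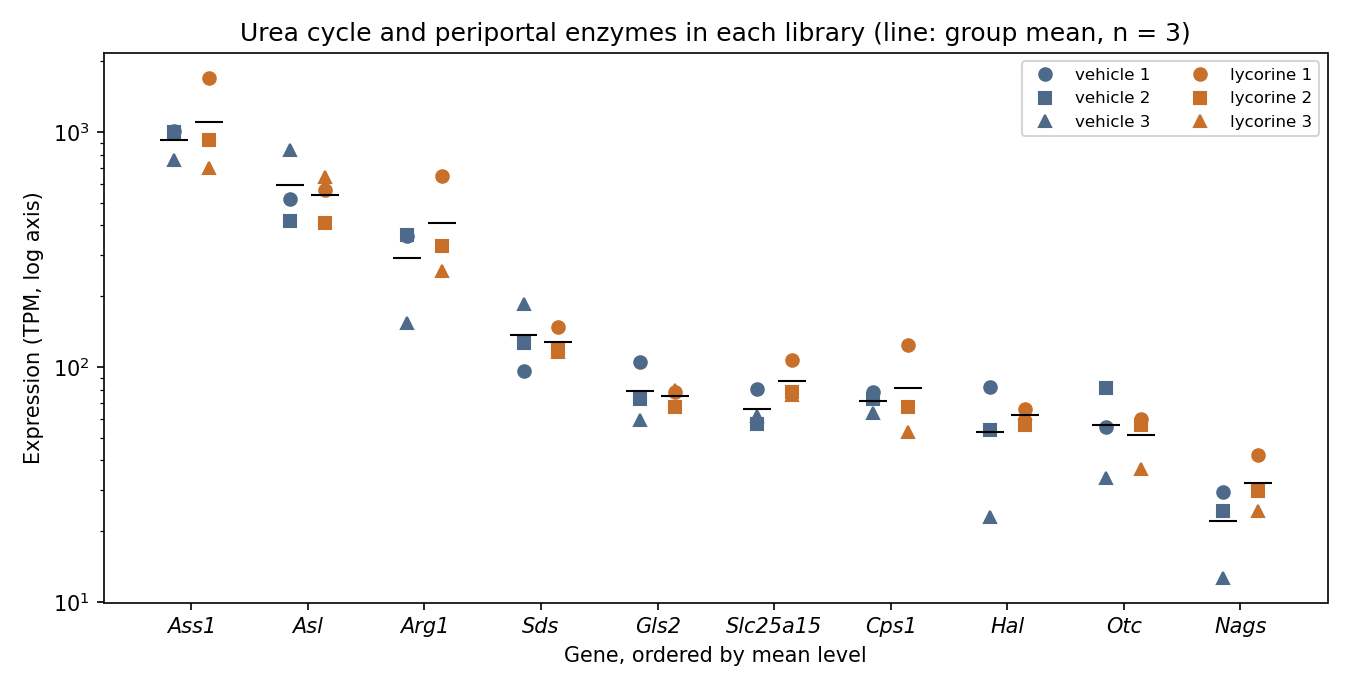
Expression in TPM on a log axis of the 10 genes, ordered by mean level, with a point for each of the 3 vehicle (blue) and 3 lycorine (orange) libraries and a line at each group mean. Vehicle and lycorine points overlap for every gene, from Ass1 at 1015 TPM on average to Nags at 27.0 TPM.

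Lycorine was compared with vehicle to ask whether nitrogen disposal genes changed with treatment. Of the 10 genes 0 passed the threshold of 0.05 in limma with Benjamini-Hochberg adjustment, where 0% of all tested rows passed. At an unadjusted limma p under 0.05 there were 0 of 10, beside 3.44% of all rows, of which 2.79% of rows were higher and 0.65% lower in lycorine. The log2 fold change was above 0 for 6 of the 10, beside 69.9% of all tested rows, and the median of the 10 was 0.13 against 0.22 over all rows. That count was 4 with median-of-ratios scaling and 2 with each library scaled to secreted hepatocyte genes. Above the median of all rows lay 4 of the 10, both as reported and with each of these scalings. Which median was higher, that of the 10 or that of all rows, turned with single libraries. That of the 10 was 0.22 against 0.10 over all rows without vehicle 2, 0.37 against 0.24 without lycorine 3 and -0.11 against 0.16 without lycorine 1. The groups did not overlap in 0 of the 10, beside 10.6% of all rows, of which 9.6% of rows were higher and 1.01% lower in lycorine. The 95% intervals given with each gene show how large a change the 3 libraries per group leave possible, and a p that misses the threshold does not show equal expression.

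Nags, the source of the activator of CPS1, had the largest log2 fold change of the 10. Nags was at 29.2, 24.3 and 12.7 TPM in vehicle 1 to 3 and at 42.1, 29.6 and 24.3 TPM in lycorine 1 to 3. Vehicle 3 was the lowest and lycorine 1 the highest, and the remaining values of both groups lay within a few TPM of each other. On the log2(TPM + 1) scale its log2 fold change was 0.56 (SE 0.39, 95% interval -0.36 to 1.47), with a limma adjusted p of 0.832 and an exact permutation p of 0.3, where 0.1 is the smallest that 3 against 3 allows. Without vehicle 3 it was 0.22, and with each library scaled to hepatocyte secreted genes it was 0.14. Nags lies on chromosome 11 from 102145513 to 102149477, and an antisense gene, Gm11586, overlaps it with at most 3.51 TPM.

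Cps1, the ammonia-capturing entry enzyme, was at 78.3, 72.8 and 63.9 TPM in vehicle and at 124, 67.7 and 52.8 TPM in lycorine. The 3 vehicle libraries were close together, while lycorine held both the highest and the lowest library. The coefficient of variation was 10.1% in vehicle and 45.9% in lycorine. Cps1 had a log2 fold change of 0.09 (SE 0.37, 95% interval -0.76 to 0.95), with a limma adjusted p of 0.955 and an exact permutation p of 0.9. Its sign turned with single libraries and with scaling, at -0.25 without lycorine 1, 0.35 without lycorine 3 and -0.22 with median-of-ratios scaling. Cps1 lies on chromosome 1 from 67123026 to 67231259.

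Otc, which makes citrulline, was at 55.2, 81.1 and 33.7 TPM in vehicle and at 60.3, 56.7 and 36.7 TPM in lycorine. Library 3 was the lowest of each group, and vehicle 2 was the highest of all. Otc had a log2 fold change of -0.09 (SE 0.40, 95% interval -1.01 to 0.84), with a limma adjusted p of 0.960 and an exact permutation p of 1. Without vehicle 3 it was -0.41, and without vehicle 2 it was 0.21. Otc lies on chromosome X from 10252305 to 10321024, with the promoter window shown above ending just before it. Slc25a15, the ornithine carrier on chromosome 8 from 22375551 to 22398597, was at 80.6, 57.0 and 61.5 TPM in vehicle and at 107, 77.8 and 75.8 TPM in lycorine. Vehicle 2 and vehicle 3 lay below all lycorine libraries, but vehicle 1 lay within the lycorine range. The log2 fold change of Slc25a15 was 0.38 (SE 0.29, 95% interval -0.31 to 1.07), with a limma adjusted p of 0.832 and an exact permutation p of 0.3. It was 0.22 without lycorine 1 and 0.07 with median-of-ratios scaling.

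The cytosolic steps differed from each other in their order of libraries. Ass1, which joins citrulline to aspartate, was at 1011, 999 and 762 TPM in vehicle and at 1695, 923 and 699.5 TPM in lycorine. Lycorine 1 exceeded every other library and lycorine 3 was the lowest, the order seen for Cps1. Ass1 had a log2 fold change of 0.17 (SE 0.37, 95% interval -0.70 to 1.04), with a limma adjusted p of 0.922 and an exact permutation p of 0.9. It became -0.19 without lycorine 1, 0.45 without lycorine 3 and -0.14 with median-of-ratios scaling. Ass1 lies on chromosome 2 from 31470207 to 31520672. Asl, which yields arginine, was at 519.8, 419 and 835 TPM in vehicle and at 568, 408 and 643 TPM in lycorine. Here library 3 was the highest of each group, in contrast to Otc, Ass1, Arg1, Nags and Cps1, where library 3 was the lowest of each group. The log2 fold change of Asl was -0.10 (SE 0.35, 95% interval -0.91 to 0.72), with a limma adjusted p of 0.950 and an exact permutation p of 0.9, and leaving out vehicle 3 gave 0.18. Asl lies on chromosome 5 from 130011258 to 130029247.

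Arg1, the final step, was at 359, 362 and 154 TPM in vehicle and at 646, 327 and 256 TPM in lycorine. Vehicle 3 was the lowest by far and lycorine 1 the highest, a 4.20-fold span and the widest of the 10 genes. Arg1 had a log2 fold change of 0.48 (SE 0.48, 95% interval -0.65 to 1.60), with a limma adjusted p of 0.833 and an exact permutation p of 0.6. Without vehicle 3 it was 0.07, and without lycorine 1 it was 0.09. Arg1 lies on chromosome 10 from 24915221 to 24927484. It is also made by some macrophages, and macrophage marker values are given further on.

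Of the amino acid enzymes, Hal had the widest spread within vehicle. Hal, the histidine ammonia-lyase on chromosome 10 from 93488768 to 93519304, was at 82.3, 53.9 and 23.0 TPM in vehicle and at 66.3, 56.6 and 63.6 TPM in lycorine. The lycorine libraries clustered between the extremes of vehicle, with a coefficient of variation of 8.05% against 55.8%. Hal had a log2 fold change of 0.40 (SE 0.46, 95% interval -0.68 to 1.48), with a limma adjusted p of 0.849 and an exact permutation p of 0.7, and leaving out vehicle 3 gave -0.10. Gls2, the liver glutaminase on chromosome 10 from 128194457 to 128210004, was at 104.9, 73.3 and 59.3 TPM in vehicle and at 78.2, 67.6 and 79.7 TPM in lycorine. It too was more scattered in vehicle, at 29.5% against 8.78%, and its log2 fold change was -0.04 (SE 0.31, 95% interval -0.76 to 0.68, limma adjusted p = 0.978). The difference in scatter between groups was not tested.

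Sds, the serine dehydratase on chromosome 5 from 120476526 to 120483932, was at 96.0, 126 and 186 TPM in vehicle and at 148, 118 and 116 TPM in lycorine. As with Asl, vehicle 3 was the highest library. Its log2 fold change was -0.05 (SE 0.33, 95% interval -0.82 to 0.71, limma adjusted p = 0.973), or 0.20 when vehicle 3 was left out. The end of Sds overlaps Plbd2 on the opposite strand, which reached 30.2 TPM, and that of Gls2 overlaps Spryd4, which reached 18.3 TPM. The labels do not say whether strand was used in counting, so shared reads of these pairs cannot be told apart.

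**Figure D2:**
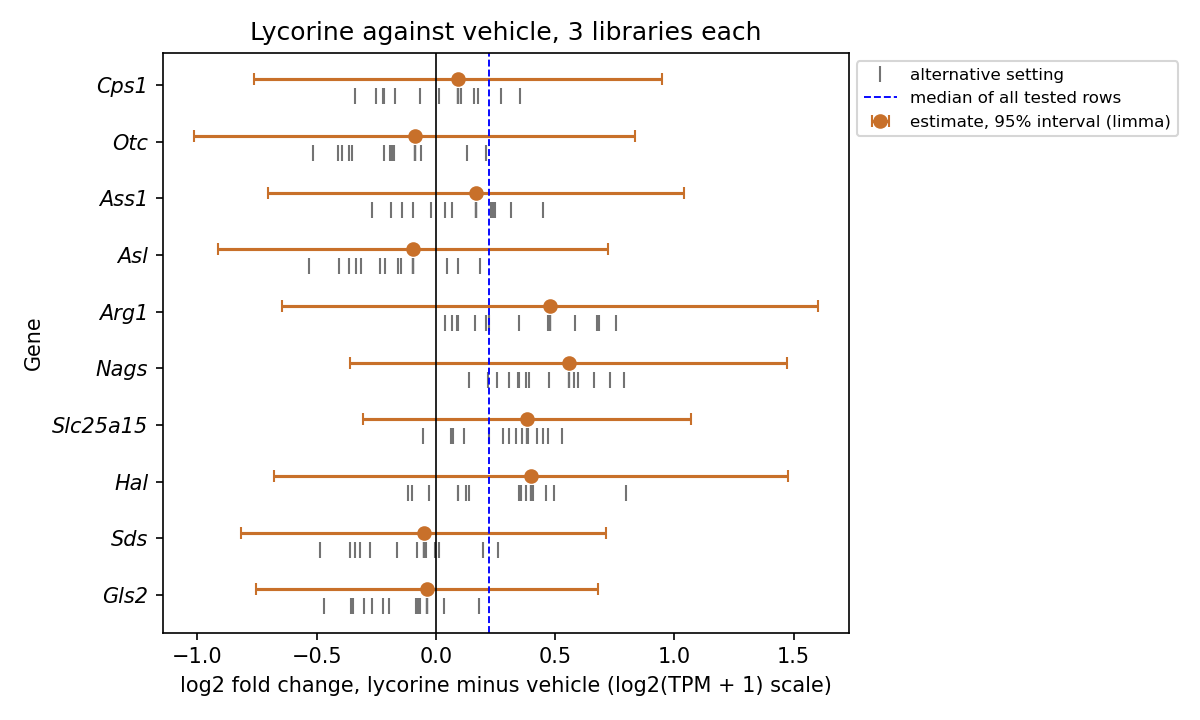
Log2 fold change of lycorine minus vehicle for the 10 genes on the log2(TPM + 1) scale, with limma's 95% interval (orange) and the value under each of 18 alternative settings (grey ticks). All intervals include 0, and the ticks stay above 0 only for Arg1 and Nags; the dashed line marks 0.22, the median of all tested rows.

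Single libraries stood out across many of the genes. Lycorine 1 held the highest value of 5 of the 10 genes and lay above the gene's own 6-library mean for 10 of 10. Vehicle 3 held the lowest value of 5 genes, Otc, Arg1, Nags, Hal and Gls2, and the highest of 2, Asl and Sds. Relative to the gene's mean in log2(TPM + 1), vehicle 3 was at -1.20 for Hal, -1.05 for Arg1 and -0.96 for Nags, but at 0.61 for Asl and 0.52 for Sds. The median deviation of the 10 genes was 0.40 in lycorine 1 and -0.35 in vehicle 3, beside 0.22 and -0.20 over all tested rows. Over all protein-coding genes, short transcripts were low in vehicle 3, as given above. Of the 10, Sds and Arg1 have longest transcripts of 1288 and 1477 bases and stood at 0.52 and -1.05 there. Hal and Cps1, at 5319 and 5555 bases, were at -1.20 and -0.20. The extremes in vehicle 3 were Hal and Asl, the latter with a longest transcript of 2413 bases. The part of library makeup in these values was not tested.

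**Figure D3:**
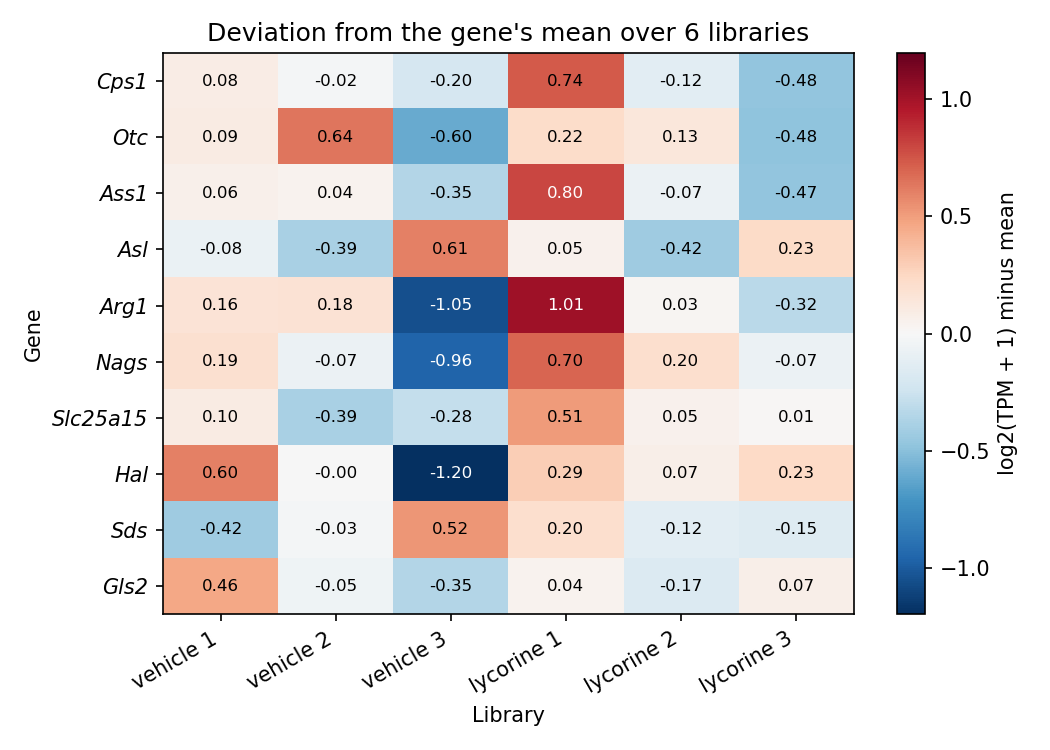
Deviation of each gene in each library from its mean over the 6 libraries, in log2(TPM + 1), red for above and blue for below. Lycorine 1 is above the mean in all 10 rows, and vehicle 3 runs from -1.20 for Hal to 0.61 for Asl.

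Cps1 and Ass1 kept a nearly constant proportion. The ratio of Ass1 to Cps1 in TPM took the values 12.9, 13.7 and 11.9 across the vehicle libraries and 13.7, 13.6 and 13.3 across the lycorine libraries, although each gene alone varied 2.34-fold and 2.42-fold. The highest ratio was 1.15 times the lowest, the smallest span of the 45 pairs among the 10 genes. Arg1 with Nags had the next smallest span, 1.46, and Asl with Sds the third, 1.68. The ratio of Asl to Arg1 took the values 1.45, 1.16 and 5.42 across vehicle and 0.878, 1.25 and 2.51 across lycorine, a span of 6.17. Only Hal with Sds spanned more among the 45 pairs, 6.92. Asl took 38.1% of the summed TPM of the 10 genes in vehicle 3 and 31.4% in lycorine 3, against 16.1% to 21.5% elsewhere.

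**Figure D4:**
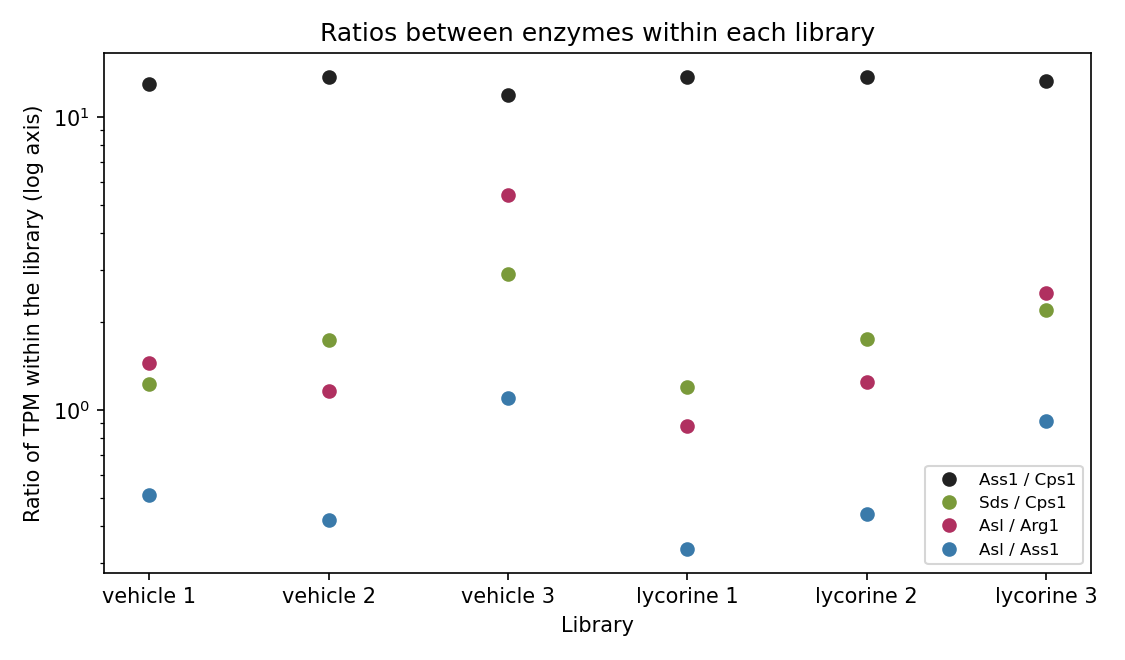
Ratio of TPM between enzymes within each library, on a log axis, a point per library. Ass1 over Cps1 stays between 11.9 and 13.7, whereas Asl over Arg1 runs from 0.878 in lycorine 1 to 5.42 in vehicle 3.

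Across the transcriptome, Ass1 was also the protein-coding gene with the profile nearest to Cps1, of 10988 ranked by the distance between their centred log2(TPM + 1) values over 6 libraries. Its distance was 0.18. Dcaf12, a substrate receptor of a ubiquitin ligase, followed at 0.20, then Herpud2 at 0.25, Tmem42 at 0.26 and Rnf130 at 0.27. Dcaf12, Herpud2 and Tmem42 were low, at 2.6 to 6.33, 0.85 to 2.85 and 2.65 to 6 TPM. The log2(TPM + 1) scale understates differences between libraries for such genes. Of the other members, Slc25a15 ranked 908, Nags 3052, Arg1 3261, Otc 3505, Gls2 3614, Sds 4799, Asl 7214 and Hal 7431. Libraries share their makeup, so nearness over 6 of them is a description and carries no test.

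Each related isoenzyme or carrier named here was lower than its own counterpart among the 10. Arg2, the mitochondrial arginase, was at 0.26, 0.03 and 0.09 TPM in vehicle and at 0.10, 0 and 0 TPM in lycorine, below the minimum for testing. Sdsl, a relative of Sds, was at 15.2 to 22.8 TPM, and Sds was 4.21 to 8.54 times as high. Slc25a2, a second ornithine carrier, was at 0 to 0.39 TPM.

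Genes that feed and drain the cycle were read from a wider list. This list of 27 genes of ammonia, glutamate and bicarbonate supply and of transport had 24 tested, of which 21 had a log2 fold change above 0, beside 69.9% of all rows. Their median was 0.50 against 0.22 over all rows, and 20 lay above the latter. In limma 0 of the 24 passed, and 3 had an unadjusted p under 0.05, all on the higher side (2.79% of all rows). The groups did not overlap in 10 of the 24, all higher in lycorine, beside 9.6% of all rows. With median-of-ratios scaling 20 of 24 were above 0, with a median of 0.23 against -0.02 over all rows. With hepatocyte scaling it was 15 of 24, with 0.10 against -0.14. With these, quantile and protein-coding scaling, 0 of the 24 had an unadjusted p under 0.05, beside 159 to 320 of the tested rows. Without vehicle 3 the median was 0.33 against 0.19. No test of the difference between this list and the 10 genes was made.

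Car5a, the mitochondrial carbonic anhydrase that supplies bicarbonate to CPS1, was at 26.6, 29.9 and 24.0 TPM in vehicle and at 43.7, 40.4 and 46.6 TPM in lycorine. All lycorine libraries lay above all vehicle libraries, with little scatter in either group. Car5a had a log2 fold change of 0.68 (limma adjusted p = 0.832), and 0.38 with median-of-ratios scaling. Sirt5, a mitochondrial deacylase that acts on CPS1, was at 5.45, 4.20 and 2.57 TPM in vehicle and at 8.15, 6.84 and 7.47 TPM in lycorine, a log2 fold change of 0.78 (limma adjusted p = 0.832). Its groups did not overlap either, and its log2 fold change was 0.55 without vehicle 3 and 0.52 with median-of-ratios scaling. Aqp9, a channel for glycerol and urea, was at 64.4, 66.6 and 36.9 TPM in vehicle and at 93.3, 89.7 and 96.4 TPM in lycorine, a log2 fold change of 0.77 (limma adjusted p = 0.832), or 0.50 without vehicle 3. Gpt, the alanine aminotransferase, averaged 163 ± 6.60 TPM over the vehicle and 250.03 ± 41.6 TPM over the lycorine libraries (SD, n = 3 each). Its log2 fold change was 0.60, or 0.29 with median-of-ratios scaling. These 4 had the smallest unadjusted p of the list, and none passed the adjusted threshold.

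The wider list of amino acid breakdown had 47 of 47 genes tested. Of these 41 were above 0, beside 69.9% of all rows, with a median of 0.33 against 0.22. In limma 0 passed and 1 had an unadjusted p under 0.05, on the higher side, beside 2.79% of all rows. Without vehicle 3, 6 of the 47 had one in either direction, and so did 602 of all 13854 rows. With median-of-ratios scaling 24 of 47 were above 0 and with hepatocyte scaling 19, where the all-row medians were -0.02 and -0.14. Above the all-row median lay 31 of 47 as reported, 26 with median-of-ratios and 25 with hepatocyte scaling. Csad, which makes hypotaurine on the way to taurine, had the smallest p, at 17.2, 32.4 and 22.9 TPM in vehicle and at 82.5, 62.0 and 39.4 TPM in lycorine, a log2 fold change of 1.29 (limma adjusted p = 0.832). Its lycorine libraries all lay above its vehicle libraries. Gpt, Got1 and Gcsh followed by p, and Got1, the cytosolic aspartate aminotransferase, was at 14.0, 17.0 and 19.0 TPM in vehicle and at 74.9, 27.6 and 21.2 TPM in lycorine. Its log2 fold change of 1.05 became 0.52 without lycorine 1. Gcsh, of the glycine cleavage system, averaged 5.33 ± 1.51 and 12.7 ± 6.91 TPM (SD, n = 3 each), with overlapping groups, and its log2 fold change of 0.995 became 0.63 without lycorine 1.

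Zonation was read from both ends of the lobule. A periportal list of 18 genes, 3 of which (Hal, Sds and Gls2) are among the 10, had 15 above 0, beside 69.9% of all rows. Its median was 0.39 against 0.22 over all rows, or 0.08 against 0.19 without vehicle 3. With median-of-ratios scaling 12 of 18 were above 0 and with hepatocyte scaling 8. Above the all-row median lay 12 of 18, both as reported and with each of these scalings. Apoa4, Igfals, Ndufb10 and Aldh1b1 had its smallest p, with log2 fold changes of 3.02, 0.62, 0.60 and 0.68, and none passed (limma adjusted p = 0.832 for each), and the groups overlapped for Aldh1b1, whose value was 0.33 without vehicle 3. A pericentral list of 23 genes had 22 tested, and 22 of 22 were above 0, with a median of 0.59 against 0.22 over all rows. In limma 0 of these passed and 5 had an unadjusted p under 0.05, all on the higher side, beside 2.79% of all rows. With median-of-ratios, quantile, protein-coding and hepatocyte scaling 18 of 22 were above 0 in each case. The number with an unadjusted p under 0.05 was then 2, 3, 4 and 3, beside 320, 295, 233 and 159 of the tested rows. Cyp2c29, Gulo and Lect2 were among its smallest p, with log2 fold changes of 3.40, 1.12 and 1.35. Lect2 was at 0.84 without vehicle 3, and Cyp2c29 can share reads with near-identical relatives.

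Glul, the pericentral counterpart of the cycle, was at 79.3, 96.0 and 81.3 TPM in vehicle and at 118, 123 and 152 TPM in lycorine. Each lycorine library lay above each vehicle library. Its log2 fold change of 0.60 (SE 0.27, limma adjusted p = 0.832) became 0.29 with median-of-ratios scaling. The ratio of Cps1 to Glul took the values 0.987, 0.758 and 0.786 across vehicle and 1.05, 0.550 and 0.347 across lycorine, with overlapping groups.

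**Figure D5:**
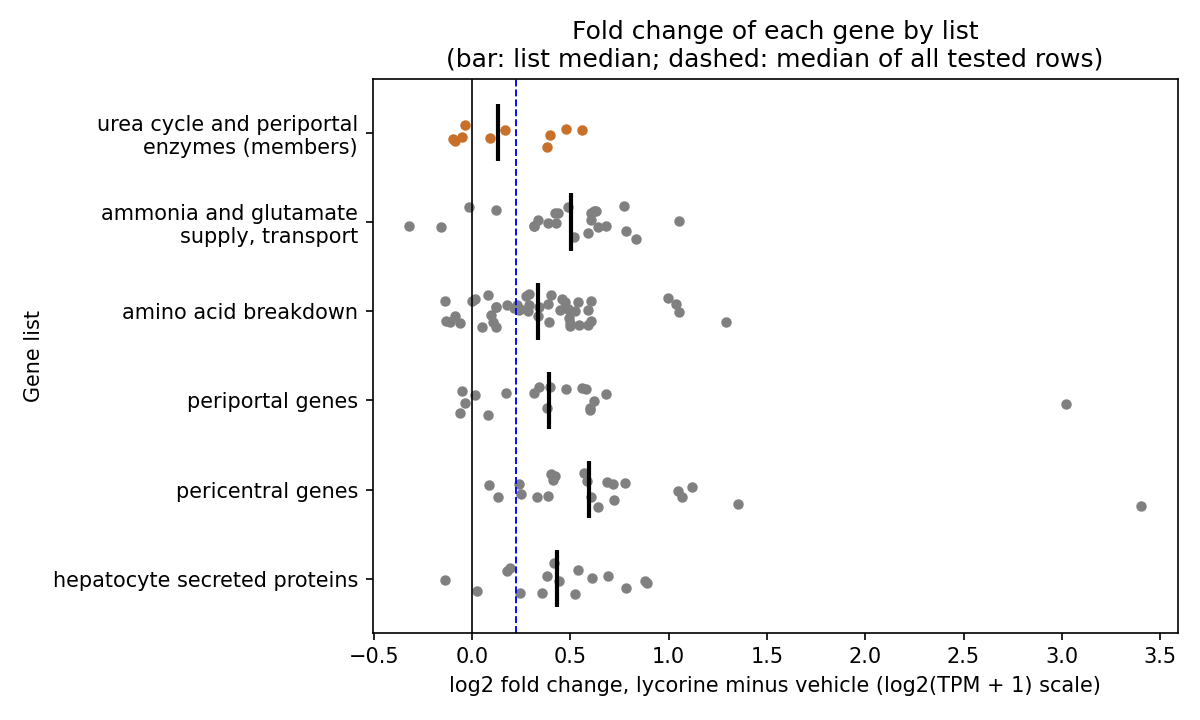
Log2 fold change of lycorine minus vehicle for each tested gene of 6 lists, a point per gene and a bar at the list's median, with the dashed line at 0.22, the median of all tested rows. The median of the 10 urea cycle and periportal enzymes is 0.13 with all libraries, and lies above that of all rows without vehicle 2 (0.22 against 0.10) or without lycorine 3 (0.37 against 0.24).

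Regulators of these genes were read from a list of 21, of which 20 were tested and 0 passed in limma. Of the 20, 14 were above 0, beside 69.9% of all rows, with a median of 0.29 against 0.22. With hepatocyte scaling, where the all-row median was -0.14, 6 of 20 were above 0. Above the all-row median lay 12 of 20 as reported and 13 with hepatocyte scaling. Cebpa, a liver transcription factor required for urea cycle gene expression, was at 55.4, 61.5 and 28.0 TPM in vehicle and at 108, 104 and 64.0 TPM in lycorine, a log2 fold change of 0.95 (limma adjusted p = 0.832), or 0.61 without vehicle 3. Its groups did not overlap, as in 9.6% of all rows on the higher side, and library 3 was the lowest of each group. Nr1h4, the bile acid receptor, Rxra, its partner, and Klf15, a regulator of amino acid breakdown, had log2 fold changes of 0.55, 0.43 and 0.71, none of which passed (limma adjusted p = 0.832 for each). With median-of-ratios scaling Nr1h4 was at 0.24 and Rxra at 0.12, and Rxra was at -0.0016 with hepatocyte scaling. Klf15 was at 0.37 without vehicle 3 and 1.15 without vehicle 2.

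Markers of other cell types are given beside these values. Kupffer cell markers were below 0 in 7 of 7 tested genes, beside 4174 of all 13854 rows. Their median log2 fold change was -1.26, and their sums were 188 to 438 TPM in vehicle and 131 to 299 TPM in lycorine. Of these 7, 0 passed in limma and 4 had an unadjusted p under 0.05, beside 0.65% of all rows on the lower side. Without vehicle 3, 1 of the 7 had one, and so did 602 of all 13854 rows in either direction. The number was 2 without lycorine 1 or lycorine 2, 3 with hepatocyte scaling and 4 with median-of-ratios scaling. It was 5 without vehicle 3 and lycorine 3 together. Over these settings 159 to 578 of the tested rows had one, and all 7 markers were below 0 in each. Endothelial markers were below 0 in 5 of 5 and neutrophil markers in 3 of 3, beside the same 4174 rows. Their sums were 26.0 to 81.9 and 6.98 to 27.9 TPM in vehicle and 15.5 to 42.8 and 1.76 to 4.19 TPM in lycorine. The neutrophil sum was 27.9 TPM in vehicle 1 but 7.67 and 6.98 TPM in vehicle 2 and vehicle 3. Without vehicle 1, 2 of the 5 endothelial markers were above 0. The 3 neutrophil markers stayed below 0 there, with a median of -0.84 in place of -1.47. Markers of recruited macrophages, cells that can make Arg1, summed to 118 to 620 TPM in vehicle and 104 to 509 TPM in lycorine and were highest in vehicle 1 and lycorine 1. Sums for cholangiocyte, stellate, T and NK, B and erythroid markers overlapped between groups. Of all these markers, Gzma, Cd79a, S100a8 and Retnlg were at 0 in at least 1 library. The part of these cells in the values of the 10 genes was not tested.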

How the data were processed

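Liver RNA from 3 vehicle and 3 lycorine libraries was analysed. The authors deposited 1 table of expression per gene. Its name speaks of FPKM, but the deposited values of each library add up to 1000000, which makes them TPM, given with 2 decimals. Per the submitters' processing notes, the builds were GRCm38 and mm10; not given in the sources used here are the aligner, the quantifier and the annotation. Vehicle columns carry only genotype and number and were assigned by elimination. GENCODE M21 on GRCm38 named 52083 of 55416 Ensembl identifiers, and 3185 rows are assembled loci.

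Rows whose mean reached 1 TPM were tested as log2(TPM + 1), a scale that understates changes of low genes, with limma 3.58.1 in R 4.3.3 (variance trend, two-sided, Benjamini-Hochberg over all 13854 rows, threshold 0.05). Single genes also had an exact two-sided permutation test over 20 assignments. The procedure was tested on values simulated with the means and spread of the tested rows. The changed genes came only from rows above a higher level than the minimum for testing. Noise was drawn separately for each library, so shifts shared by many genes of a library were left out. Of 50 genes changed 2-fold 3 passed the threshold, of 50 changed 4-fold 28 passed and of 50 changed 8-fold 48 passed. Most 2-fold changes were thus missed in this simulation, and recovery among the lowest tested genes was not examined. TPM keeps no depth, so no counting interval is given.

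The 10 genes and all lists were chosen with earlier results of these data known. Named genes were the 10, their paralogues, Alb, Glul, the 4 smallest p in each pathway, zonation or regulator list and the 5 profiles nearest to Cps1; some of these are not reported here. Those of the secreted hepatocyte list, which also served for scaling, are in the closing section. Ratios between genes were added after values were seen. Alternatives covered pseudocount, filter, scaling, variance model, library weights, a replicate block and libraries left out.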

Additional observations from a re-analysis of the deposited data

How the results depend on the processing

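Over 18 alternatives 0 of the 10 genes passed in limma. Over all rows 0 passed with the settings as reported, 476 had an unadjusted p under 0.05, and 1 passed with a pseudocount of 0.1 and 1 with array quality weights, whose estimation did not fully converge. Over the libraries left out, 0 to 2 rows passed, the 2 without vehicle 2. With scaling the all-row median of log2 fold changes went from 0.22 to -0.02 with median-of-ratios, 0.07 with quantile normalization, 0.03 with protein-coding nuclear genes only and -0.14 with hepatocyte scaling. The number of the 10 genes above 0, counted across settings after the data were seen, was 6 as reported, 2 with hepatocyte scaling and 4 to 8 over the libraries left out.

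Signs of single genes were not stable, except those of Arg1 and Nags, which stayed above 0 in all 18 alternatives. Cps1 and Ass1 were below 0 with median-of-ratios scaling (-0.22 and -0.14), with protein-coding nuclear genes only (-0.17 and -0.10), with hepatocyte scaling (-0.34 and -0.27) and with array quality weights (-0.066 and -0.021), and Cps1 with quantile normalization (-0.22). Hepatocyte scaling also gave -0.053 for Slc25a15 and -0.028 for Hal. Without vehicle 3 and lycorine 3 together, Asl was at 0.045, Hal at -0.12 and Sds at 0.26. Over single libraries left out, Cps1 ranged from -0.25 to 0.35, Otc from -0.41 to 0.21, Ass1 from -0.19 to 0.45, Asl from -0.31 to 0.18, Arg1 from 0.07 to 0.76, Nags from 0.22 to 0.79, Slc25a15 from 0.22 to 0.53, Hal from -0.10 to 0.80, Sds from -0.27 to 0.20 and Gls2 from -0.22 to 0.18. The cause was not tested.

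With the replicate number as a block 0 rows and 0 of the 10 genes passed, and 1033 rows had an unadjusted p under 0.05. Same-numbered libraries had correlations of deviations of 0.31, 0.05 and 0.29. For each lycorine library, the same-numbered vehicle library correlated best among the vehicle libraries. Vehicle 2 itself correlated better with lycorine 1, at 0.21, than with lycorine 2. Whether same-numbered libraries share a batch was not tested. The labels do not state that the numbers pair the samples, so the main fit left them unpaired. Unknown depth limits what can be said of low genes such as Arg2.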

Other observations

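Asl had its own set of near neighbours, ranked after its values were seen. Of 10988 protein-coding genes, the profile nearest to Asl was that of Pfkfb2, an enzyme that sets fructose 2,6-bisphosphate, followed by Zfp958, Slc25a47, Tmem47 and Spred1. All but Slc25a47 were low, where the scale understates differences. Pfkfb2 was at 3.35 to 6.65, Zfp958 at 1.31 to 3.49, Tmem47 at 0.56 to 2.24 and Spred1 at 0.81 to 2.72 TPM. Slc25a47, a mitochondrial carrier of hepatocytes, was at 249, 204 and 357 TPM in vehicle and at 289, 213 and 298 TPM in lycorine. Sds ranked 687. Highest in vehicle 3 and next in lycorine 3, as Asl was, described 761 of 10989 protein-coding genes, or 6.93%. Slc7a2, a cationic amino acid importer that brings arginine and ornithine into cells, shared these top libraries but not the order of the rest. It was at 11.8, 18.1 and 85.0 TPM in vehicle and at 18.4, 24.7 and 39.8 TPM in lycorine. Its profile ranked 7259 of 10988 by nearness to Asl. Gcgr, the glucagon receptor, was highest in library 3 of each group, at 129, 66.9 and 245 TPM and at 119.9, 139 and 253 TPM.

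Among secreted hepatocyte genes, Trf (transferrin), Apoh, Ahsg and Apoc3 had the smallest p, with log2 fold changes of 0.89, 0.61, 0.88 and 0.69, and 0 of 16 passed in limma while 2 had an unadjusted p under 0.05, beside 2.79% of all rows on the higher side. Of the 16, 15 were above 0, and without vehicle 3 it was 9, with a median of 0.16 against 0.19 over all rows and 0 under 0.05. Alb averaged 13301 ± 7201 TPM over the vehicle and 17025 ± 4507 TPM over the lycorine libraries (SD, n = 3 each). Its log2 fold change was 0.53, -0.07 without vehicle 3, 0.21 with median-of-ratios scaling and 0.09 with hepatocyte scaling.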
